A study of Mus musculus with 4 samples.

Results

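In the epidermis of mouse embryos with activated beta-catenin, 87 genes outside the keratin and other large families by symbol went from background signal to clear signal on at least 1 probe set. A probe set, the group of short probes that reads a transcript, was taken as switched on where its signal lay at or below the 40th percentile of the array on both control arrays and reached at least 100 on both mutant arrays. Of 18193 genes named by probe sets of 1 gene, 143 (0.786%) met these limits. Genes of 16 symbol families, such as the keratin, Hox, Sox, Wnt and Fgf genes, and 5 single genes (Notum, Nkd1, Tchh, Heyl and Tyrp1) were then set aside by name, which left the 87 (0.478%), each read by its brightest probe set within the limits. Of those 5, all but Tchh had a probe set within the limits. In 10 of the 87 genes, Runx1 and Tenm2 among them, another probe set lay above the percentile on both controls, so the call is one of a probe set and not of the gene. These genes were chosen by the mutant and control signals themselves, so their difference between groups is described below without a test.

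Total RNA came from the epidermis of E15.5 embryos, with 2 embryos per group and 1 array per embryo. Mutants carried KRT14-Cre and Ctnnb1(Ex3)fl/+, a conditional Ctnnb1 allele that loses the third exon where Cre acts, and the controls were littermates whose own alleles the labels do not give. Dorsal skin was treated with dispase, which parts epidermis from dermis, and the epidermal RNA was measured. Cre under a keratin 14 promoter acts in keratinocytes. Other cells of the sheet keep the unrecombined allele unless that promoter was active in them or in a cell they descend from. In such bulk samples, more cells of a type and more RNA per cell cannot be told apart.

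Beta-catenin carries the canonical Wnt signal into the nucleus, where it works with TCF and LEF DNA-binding proteins. The third exon of its gene encodes the residues that mark the protein for destruction, and without them the pathway runs without a ligand. In embryonic skin this pathway starts the hair placode, and in the grown follicle it acts in the matrix cells that become the hair shaft, which are filled with hair keratins embedded in keratin-associated proteins.

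Ctnnb1 itself read 5311 and 4940 in controls and 6907 and 7323 in mutants, a log2 rise of 0.47 ± 0.08 (mean ± SE over 2 arrays a group, limma adjusted p = 3.06e-03). Whether its probes lie in the deleted exon was not examined here, so it is no measure of the deletion. Axin2, a target and feedback inhibitor of the pathway, rose by 2.31 ± 0.09 (limma adjusted p = 2.38e-06). The median signal of the 4 arrays was 26.7 to 30.1, and 14252 to 14400 of 45037 probe sets reached 100. Log2 signals correlated at 0.940 and 0.935 within groups and at 0.881 to 0.886 between groups over all probe sets, which share probes' base composition and are not replicates. In limma at an adjusted p under 0.05, 39.4% of 28434 probe sets differed between the groups. Over 12469 genes tested, 20.6% were higher and 24.5% lower in mutants, 45.1% in either direction. These were 2565 higher and 3057 lower genes, against 2108 and 3627 with median centring, and the balance turned to 2191 and 2015 without control 1 and 2162 and 2135 without control 2.

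The same limits applied between single arrays, families included, show how far replicate arrays differed. Between the arrays of a group, 0 to 5 genes were at background on one and at least 100 on the other. From a control to a mutant array, 175 to 180 genes were at background on the control and at least 100 on the mutant, and 66 to 87 genes went the other way. With the limits mirrored, 47 genes (0.258%) reached 100 on both controls and lay at background on both mutants.

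Control signals of the 87 genes ran from 0.154 to 14.5, against percentiles of 14.4 and 14.6, and mutant signals from 100.2 to 6536. Signals this low on the controls have no order, so each fold is given as a bound, the mean log2 signal of the mutants over that of the controls' percentiles. The bound was 7.31-fold to 404-fold with a median of 16.5-fold. It was at least 100-fold for 7 genes, 20-fold to 100-fold for 32 and under 20-fold for 48.

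Promoter sequences of the 6 genes with the largest bounds among those matched in RefSeq's promoter table are printed here because they show what the strongest members share and where they differ. Crym, whose bound stands between those of Gprc5d and Hephl1, was not matched. They are the 250 bases before the annotated start, from RefSeq on the GRCm38.p6 build, 5′ to 3′ on the strand of the gene, in lower case. Capitals mark matches to CTTTGAT or CTTTGTT, which TCF and LEF proteins bind, to TTTATNG, the motif of the hair regulator HOXC13, each on either strand, and to TATAAA on the gene's own strand, a search added after the data were seen. Gm10229 lies at chr16:89015027-89015276 (plus strand), Mt4 at chr8:94136954-94137203 (plus strand), Gm10228 at chr16:89041473-89041722 (minus strand), Lrrc15 at chr16:30283255-30283504 (minus strand), Gprc5d at chr6:135118284-135118533 (minus strand) and Hephl1 at chr9:15112109-15112358 (minus strand).
Gm10229: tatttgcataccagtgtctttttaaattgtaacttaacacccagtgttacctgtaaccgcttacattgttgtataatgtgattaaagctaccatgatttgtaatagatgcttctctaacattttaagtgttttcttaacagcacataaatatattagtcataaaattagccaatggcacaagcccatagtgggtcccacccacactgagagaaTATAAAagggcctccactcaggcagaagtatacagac
Mt4: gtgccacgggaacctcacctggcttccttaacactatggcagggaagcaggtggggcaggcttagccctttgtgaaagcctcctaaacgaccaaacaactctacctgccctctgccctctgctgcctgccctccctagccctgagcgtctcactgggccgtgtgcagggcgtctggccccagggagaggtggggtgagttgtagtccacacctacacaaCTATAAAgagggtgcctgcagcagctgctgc
Gm10228: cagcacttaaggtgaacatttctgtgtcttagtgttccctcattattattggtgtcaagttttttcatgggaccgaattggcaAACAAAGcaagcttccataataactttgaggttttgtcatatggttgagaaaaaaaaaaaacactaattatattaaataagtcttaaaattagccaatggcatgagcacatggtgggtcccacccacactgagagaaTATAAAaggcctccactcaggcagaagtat
Lrrc15: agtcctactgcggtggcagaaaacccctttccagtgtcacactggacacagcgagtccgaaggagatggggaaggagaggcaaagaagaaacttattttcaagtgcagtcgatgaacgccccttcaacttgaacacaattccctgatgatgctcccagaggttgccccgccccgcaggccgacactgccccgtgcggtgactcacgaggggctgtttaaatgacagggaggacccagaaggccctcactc
Gprc5d: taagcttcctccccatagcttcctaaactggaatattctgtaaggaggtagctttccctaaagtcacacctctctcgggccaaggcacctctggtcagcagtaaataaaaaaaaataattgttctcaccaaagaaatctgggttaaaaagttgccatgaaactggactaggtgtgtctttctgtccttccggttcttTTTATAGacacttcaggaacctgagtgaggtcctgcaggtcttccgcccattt
Hephl1: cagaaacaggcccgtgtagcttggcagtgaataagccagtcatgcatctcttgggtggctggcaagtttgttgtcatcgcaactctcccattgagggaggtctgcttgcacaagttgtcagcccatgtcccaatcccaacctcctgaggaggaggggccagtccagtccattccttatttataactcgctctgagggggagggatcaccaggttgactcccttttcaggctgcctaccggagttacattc

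Gm10229 and Gm10228 share an unbroken run of 34 bases that starts 62 bases before the start in the former and 55 in the latter and takes in TATAAA and the bases before it. No other pair of these promoters shares a run of more than 9 bases. Mt4 has CTATAAA, in which TATAAA and a TTTATNG match on the opposite strand overlap, 31 to 25 bases before its start. Gprc5d matches TTTATNG 53 to 47 bases before its start, and Gm10228 has a CTTTGTT match on the opposite strand 167 to 161 bases before its start. Lrrc15 and Hephl1 hold none of these letters in this window.

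RefSeq promoters were matched for 66 of the 87 genes, 88 promoters in all. TATAAA stood on the gene's strand in 18.2% of the 66 genes and in 8.94% of 27025 genes in the table. In the usual place of a TATA box, with its first base 25 to 35 bases before the start, it stood in 9 genes (13.6%), against 2.12% of all genes. In Gm10229 it begins 37 bases before the start and so just outside that window. The 9 were 4 of the 7 loci in keratin-associated protein clusters (2310057N15Rik, Gm10228, Gm11559 and Gm11567) together with Mt4, Neu2, Calhm4, Amelx and Lyg2. TTTATNG stood in 18.2% of the 66 genes and 11.3% of all, and CTTTGAT or CTTTGTT in 6.06% and 9.21%. In Mt4 and Calhm4 the TTTATNG match overlaps TATAAA, so these counts are not separate. These are matches of letters and not measured binding, and no test was made on them.

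The label of non-keratin genes holds by symbol only. Of the 87 genes, 7 lie in clusters of keratin-associated protein genes, with such a gene within 2 protein-coding genes on the chromosome. These proteins form the matrix around the keratin filaments of the hair shaft. In the authors' deposited table the probe sets of Gm10229 and Gm10228 are named Krtap6-1, and RefSeq gives Krtap13-1 as a synonym of 2310057N15Rik. RefSeq also holds a separate gene with the symbol Krtap13-1, next to 2310061N02Rik, so the synonym does not make 2310057N15Rik that gene. Near-identical copies stand side by side in such clusters, so a probe set may read more than 1 of them.

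Gm10229 read 5.83 and 1.11 in controls and 5245 and 6536 in mutants, at least 404-fold higher. Gm10228, in the same cluster, read 3.40 and 3.72 in controls and 4197 and 5893 in mutants, at least 343-fold. Both controls lay well below the percentile in each, and mutant 2 was the higher of the mutants. Gm11563, on chromosome 11, read 2.94 and 1.10 in controls and 760 and 1081 in mutants. Gm11567 read 8.70 and 8.42 in controls and 533 and 727 in mutants, and Gm11559 read 0.334 and 0.472 in controls and 338 and 518 in mutants. These 3 loci of chromosome 11 also read higher on mutant 2 than on mutant 1. On chromosome 16, 2310057N15Rik read 1.08 and 7.35 in controls and 418 and 520 in mutants. From the same cluster, 2310061N02Rik read 11.5 and 14.2 in controls and 229 and 461 in mutants, at least 22.4-fold higher and the only member of the 87 that differed over 2-fold between the mutant arrays.

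Metal and redox proteins gave 3 members, with bounds of 66.4-fold to 351-fold. Mt4, the metallothionein of stratified squamous epithelia, read 6.60 and 1.17 in controls and 4384 and 5920 in mutants, at least 351-fold higher. Its relatives that bind zinc and copper in most tissues were already bright on the controls. Mt1 rose by 0.58 ± 0.09 (limma adjusted p = 2.25e-03) and Mt2 by 1.11 ± 0.08 (limma adjusted p = 3.49e-05) on the log2 scale. Hephl1, a copper ferroxidase whose loss in mice gives curly whiskers, read 10.9 and 8.61 in controls and 1236 and 1781 in mutants, at least 102-fold. Heph, the ferroxidase hephaestin that serves iron export in the gut, went the other way, from 279 and 239 on the controls to 101 and 99.3 on the mutants. It fell by 1.37 ± 0.14 (limma adjusted p = 2.11e-04). Cybrd1, a membrane cytochrome b that reduces ferric iron, read 6.47 and 6.27 in controls and 834 and 1111 in mutants.

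**Figure D1:**
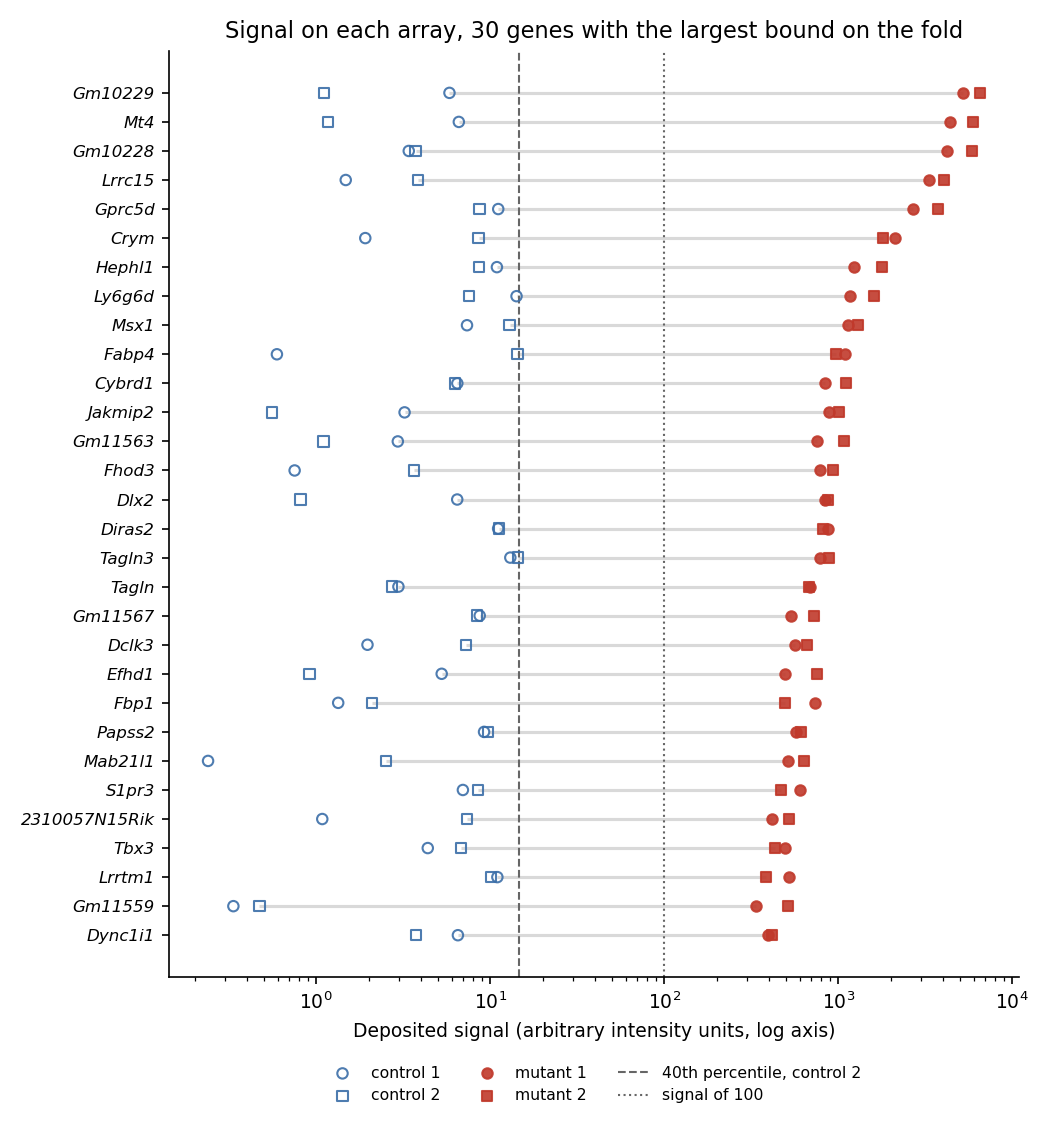
Signal of the 30 genes with the largest bound on each of the 4 arrays (log axis, arbitrary intensity units), with open blue symbols for control embryos, filled red symbols for mutant embryos, a dashed line at the 40th percentile of control 2 and a dotted line at 100. The control signals of a gene are often well apart while all lie at or below the percentile, and the mutant signals lie close together, from 338 for Gm11559 to 6536 for Gm10229.

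Receptors and other surface proteins gave 9 members. Lrrc15, a leucine-rich repeat membrane protein, read 1.48 and 3.86 in controls and 3341 and 4036 in mutants, at least 253-fold higher. Its other probe set read 3.85 and 2.28 in controls and 2782 and 3509 in mutants, so both probe sets met the limits. Gprc5d, an orphan G-protein-coupled receptor of the hair cortex, read 11.1 and 8.67 in controls and 2700 and 3736 in mutants, at least 219-fold. None of its 3 relatives on the array was switched on. Gprc5b fell by 1.15 ± 0.18 (limma adjusted p = 1.95e-03), and Gprc5a and Gprc5c had log2 differences of 0.14 ± 0.26 and 0.39 ± 0.29 and did not pass.

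Ly6g6d, a GPI-anchored protein of the Ly6 family, read 14.2 and 7.55 in controls and 1166 and 1600 in mutants, at least 94.2-fold. S1pr3, a receptor for sphingosine 1-phosphate, read 6.97 and 8.49 in controls and 601 and 471 in mutants. Stra6, the membrane receptor through which cells take up retinol, read 5.75 and 2.17 in controls and 369 and 427 in mutants. S1pr3 was the 1 of these 3 that read higher on mutant 1. Cnr1 (the cannabinoid receptor of the brain), Lypd2 (another Ly6 family protein), Cd83 (an immunoglobulin-family protein known from dendritic cells) and Ror2 (a receptor tyrosine kinase that binds Wnt5a) had bounds of 8.76-fold to 15.7-fold. Ror1, the other member of the Ror family, had a log2 difference of 0.06 ± 0.28 and did not pass.

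Transcription and RNA regulators gave 8 members. Msx1, a homeobox protein of placodes and tooth buds, read 7.36 and 12.9 in controls and 1144 and 1296 in mutants, at least 84.0-fold higher. Dlx2, a distal-less homeobox protein, read 6.46 and 0.811 in controls and 841 and 869 in mutants, at least 58.9-fold. Mab21l1, which is needed for eye development, read 0.239 and 2.51 in controls and 516 and 639 in mutants. Tbx3, a T-box repressor known from the mammary placode, read 4.38 and 6.80 in controls and 496 and 433 in mutants. Mutant 2 over mutant 1 was 0.873 to 1.24 for these 4 genes, so the mutants differed little beside the gap to the controls.

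Runx1, a runt-domain protein with a known part in hair growth, read 14.1 and 12.2 in controls and 148 and 162 in mutants with the probe set of the rule. The gene has 6 probe sets, and its others were less clear-cut. On the brightest, the controls already read 52.1 and 79.0, against 598 and 645 on the mutants, and 4 of the 6 lay above the percentile on both controls. Runx1 was thus higher in mutants on every probe set, but at background in controls only on 2. Hey1 (a Notch target repressor), Csdc2 (an RNA-binding protein with a cold shock domain) and Prrx2 (a homeobox protein known from mesenchyme) had bounds of 7.73-fold to 11.5-fold.

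Of 10 tested relatives of these regulators in the Msx, Dlx, Runx, Tbx and Hey families, 6 rose, 1 fell and 3 did not pass. Among all genes tested, 20.6% rose and 24.5% fell. Of the 6, Tbx2 and Runx3 were at background on both controls, and the call of Dlx4 was lost without control 1. Msx2 read 50.9 and 69.2 in controls and 1434 and 1684 in mutants and rose by 4.71 ± 0.17 (limma adjusted p = 1.12e-06). Dlx3, which is needed for the hair shaft, rose by 2.94 ± 0.14 (limma adjusted p = 4.63e-06), while Dlx5 fell by 1.24 ± 0.12 (limma adjusted p = 1.62e-04). Heyl, 1 of the genes set aside by name, rose by 4.25 ± 0.21 (limma adjusted p = 5.44e-06), and another of its probe sets lay within the limits. Of 4 T-box relatives tested, Tbx2 passed, at least 2.96-fold higher (limma adjusted p = 7.54e-03), and 3 did not.

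Secreted and matrix proteins gave 7 members, with bounds of 7.36-fold to 15.3-fold. Bmp6, a bone morphogenetic protein, read 6.32 and 7.39 in controls and 106 and 177 in mutants. Of 7 other Bmp genes tested, 5 rose and 2 did not pass, where 20.6% of all genes tested rose. Bmp4 read 63.5 and 55.4 in controls and 2070 and 2445 in mutants and rose by 5.24 ± 0.13 (limma adjusted p = 3.04e-07). Bmp2 rose by 3.69 ± 0.13 (limma adjusted p = 1.12e-06) and Bmp7 by 1.95 ± 0.10 (limma adjusted p = 5.23e-06). Tll1, a protease of the same group as BMP1 that frees BMPs by cutting chordin, read 11.2 and 7.85 in controls and 114 and 100.2 in mutants. Pcolce, which speeds procollagen processing by those proteases, read 8.68 and 5.68 in controls and 135 and 178 in mutants. Bmp1, also known for the latter activity, had a log2 difference of 0.33 ± 0.23 and did not pass. The class also held Crtac1, an acidic cartilage protein, Ism1, the secreted isthmin, Amelx, the amelogenin of tooth enamel, and Lyg2, a goose-type lysozyme. Amelx read 193 on mutant 1 and 118 on mutant 2, the widest gap in that direction among the 87 genes.

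Enzymes and carriers gave 10 members. Crym, a crystallin that binds thyroid hormone, read 1.91 and 8.58 in controls and 2110 and 1798 in mutants, at least 134-fold higher. Fabp4, a fatty acid-binding protein best known from adipocytes, read 0.595 and 14.3 in controls and 1090 and 967 in mutants, at least 70.8-fold. Another of its 4 probe sets met the limits with 429 and 300 on the mutants, and the remaining 2 lay at or below the percentile on all 4 arrays. Fabp5, the keratinocyte form, was bright on all arrays and had a log2 difference of -0.20 ± 0.09 that did not pass.

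Fbp1, fructose-bisphosphatase of gluconeogenesis, read 1.34 and 2.10 in controls and 733 and 494 in mutants. Papss2, which makes the sulfate donor PAPS, read 9.22 and 9.71 in controls and 574 and 614 in mutants. Aldh1a3, which makes retinoic acid, read 0.859 and 6.92 in controls and 303 and 315 in mutants. With Stra6, it gives the set 2 proteins of the retinoid pathway. The other 5 had bounds of 7.31-fold to 13.7-fold. They were the ribonuclease Rnaset2a, the isopentenyl-diphosphate isomerase Idi2, the sialidase Neu2, the glycosyltransferase Galnt5 and Hdc, the histidine decarboxylase that makes histamine.

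Several of these genes had a relative that was above background on the controls and lower on the mutants, as the plot of switched-on genes beside relatives shows. Aldh1a7 read 1122 and 1310 in controls and 53.2 and 40.6 in mutants and fell by 4.71 ± 0.16 on the log2 scale (limma adjusted p = 1.04e-06). S1pr5 read 226 and 232 in controls and 2.30 and 3.04 in mutants, at least 14.5-fold lower (limma adjusted p = 6.56e-06). Papss1, the other PAPS synthase, read 1527 and 1746 in controls and 907 and 654 in mutants and fell by 1.08 ± 0.16 (limma adjusted p = 1.19e-03). S1pr5 lay at background on both mutants, whereas Papss1 stayed bright. Neu3, a sialidase of the cell membrane, went from 74.5 and 84.1 on the controls to 9.99 and 6.81 on the mutants, at least 5.01-fold lower (limma adjusted p = 2.44e-04). Rab3d, a small GTPase of secretory vesicles, read 1378 and 1626 in controls and 368 and 340 in mutants and fell by 2.08 ± 0.11 (limma adjusted p = 7.85e-06), whereas Rab3c was switched on.

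Across the 30 families that were looked up, grouped by symbol stem or, for Hephl1 and Tll1, by known relatives, 55 relatives were tested, of which 20 (36.4%) rose, 11 fell and 24 did not pass. Over all genes 20.6% rose and 24.5% fell. The median log2 difference was 0.27 for the relatives and -0.06 for all genes tested. These families and the relatives named were chosen after values had been seen.

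**Figure D2:**
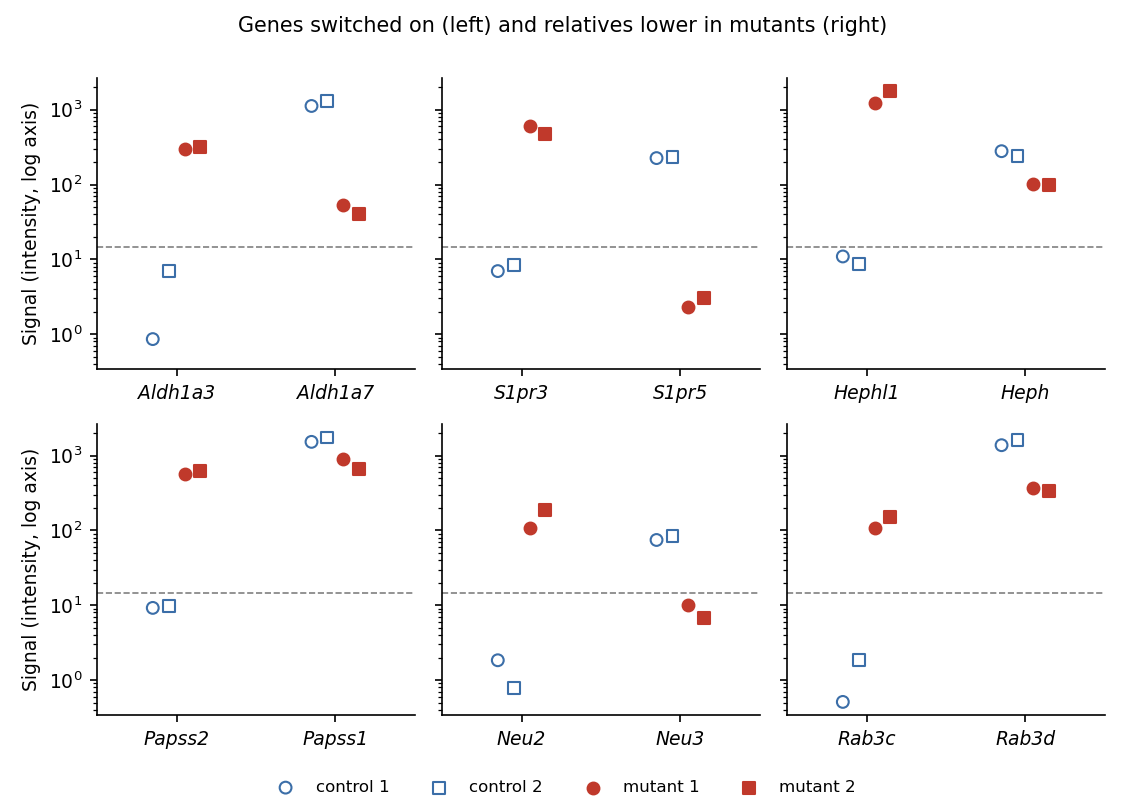
Signal on each array (log axis, intensity units) of 6 genes switched on, left in each panel, and of a relative of each that was lower in mutants, right; open blue symbols are controls, filled red symbols mutants, and the dashed line is the lowest of the 40th percentiles. The pairs were picked for moving in opposite directions, and levels of different probe sets cannot be set against each other, so only the change within a gene can be read, such as Aldh1a7 from 1122 and 1310 to 53.2 and 40.6.

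Genes known mainly from neurons made up 10 members, with bounds of 8.74-fold to 65.2-fold. Jakmip2, a coiled-coil protein of the Janus kinase and microtubule-interacting family, read 3.22 and 0.559 in controls and 886 and 1008 in mutants. Tagln3, a calponin-family protein of neurons, read 13.0 and 14.5 in controls and 790 and 880 in mutants. Lrrtm1, a synaptic adhesion protein, read 11.0 and 10.1 in controls and 523 and 387 in mutants. Rab3c, a GTPase of synaptic vesicles, read 0.510 and 1.85 in controls and 107 and 149 in mutants. A second Lrrtm1 probe set met the limits too, with 212 and 191 in mutants. The remaining members were the adhesion proteins Tenm2, Pcdh17, Lsamp and Lrrn3, and Rundc3a and Bean1, both known from brain.

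Tenm2, a teneurin, shows how far the call can hang on the probe set. The probe set of the rule read 7.29 and 14.1 in controls and 284 and 202 in mutants. Another read 834 and 791 in controls and 657 and 583 in mutants, and yet another read 96.8 and 122 in controls and 97.9 and 63.0 in mutants. Tenm2 signal was thus present on the controls and somewhat lower on the mutants by its brightest probe set.

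Cytoskeletal proteins and motors gave 7 members. Fhod3, a formin of heart muscle, read 0.752 and 3.64 in controls and 785 and 931 in mutants. Tagln, the calponin-family protein transgelin known from smooth muscle, read 2.97 and 2.73 in controls and 692 and 681 in mutants. Tagln2, the form of most other cells, rose by 1.04 ± 0.17 (limma adjusted p = 2.60e-03), so all 3 transgelin genes were higher in mutants. Dync1i1, an intermediate chain of dynein known from neurons, read 6.52 and 3.76 in controls and 396 and 415 in mutants. Mapre3, a microtubule end-binding protein, read 12.1 and 11.4 in controls and 143 and 211 in mutants. Mapre2 rose by 1.85 ± 0.13 (limma adjusted p = 3.38e-05) and Mapre1 did not pass (0.16 ± 0.08). Ttll7 (a tubulin polyglutamylase), Dnah8 (an axonemal dynein) and Myo5c (a myosin of secretory granules) had bounds of 7.66-fold to 26.0-fold.

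Intracellular signalling proteins gave 7 members. Diras2, a Ras-like GTPase of the brain, read 11.1 and 11.2 in controls and 871 and 816 in mutants, at least 58.1-fold higher. Dclk3, a doublecortin-like kinase, read 1.97 and 7.25 in controls and 567 and 665 in mutants. Prkd1, protein kinase D1, read 3.40 and 6.82 in controls and 344 and 427 in mutants. Dusp8 (a phosphatase of stress-activated kinases), Rgl1 (an exchange factor for Ral), Plcb4 (a phospholipase C) and Daam2 (a formin that binds Dishevelled) had bounds of 9.78-fold to 20.01-fold. A second Daam2 probe set read 10.2 and 15.2 on the controls, just past the limit on control 2, and 672 and 883 on the mutants, so the gene's bound rests on the dimmer of its probe sets.

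Channels, carriers and calcium proteins gave 9 members. Efhd1, a calcium-binding protein of mitochondria, read 5.26 and 0.913 in controls and 496 and 756 in mutants, at least 42.2-fold higher. Piezo2, the mechanically gated channel of Merkel cells and touch neurons, read 7.76 and 11.2 in controls and 120 and 143 in mutants. Its other probe set moved little, from 20.8 and 20.1 on the controls to 28.0 and 33.5 on the mutants. Clic6 (of the chloride intracellular channel family), Stac (an adaptor of calcium channels) and Kcnh1 (a voltage-gated potassium channel) had bounds of 24.5-fold to 25.4-fold. Other probe sets gave smaller folds for Clic6 and Kcnh1. The other Clic6 probe set was above background on all arrays, with 30.8 and 23.9 in controls and 257 and 210 in mutants, a ratio of means of 8.52. That of Kcnh1 read 20.6 and 9.51 in controls and 173 and 205 in mutants, a ratio of means of 12.6. Gja3 (a connexin of the lens), Calhm4 (of the calcium homeostasis modulator family), Orai2 (a store-operated calcium channel subunit) and Svopl (a relative of a synaptic vesicle transporter) had bounds of 7.44-fold to 16.6-fold. Orai1 and Orai3, the other store-operated subunits, had log2 differences of 0.11 ± 0.14 and -0.37 ± 0.24 and did not pass.

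The last 10 genes fall in none of these classes. They were Ap1s2, a clathrin adaptor subunit, Cryba4, a crystallin of the lens, and Tlcd4, Sel1l3, Golga7b, Plekhb1, Smim31, 5033430I15Rik, Tmem178 and 1700097N02Rik. Their bounds were 7.68-fold to 18.5-fold. For Sel1l3, a second probe set read 19.3 and 20.2 in controls and 16.4 and 4.65 in mutants, the opposite direction to the probe set of the rule.

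The rule reads each gene by 1 probe set, although its other probe sets read the same RNA on the same arrays. Any of them that met the limits was a candidate for the choice. Of the 87 genes, 42 have 1 probe set and 45 have more, with 80 others among them. Of these 80, 14 met the limits too, in 13 genes, and 29 lay at background on both controls with higher mutant signals that did not reach 100 on both. On 22, a control lay above the percentile and both mutants were higher than both controls. On 11 all arrays lay at or below the percentile, on 2 the groups overlapped, and on 2 (Tenm2 and Sel1l3) both mutants were lower. In 10 genes, among them Runx1, Plcb4, Golga7b, Clic6, Csdc2 and Ap1s2, a probe set lay above the percentile on both controls. There the ratio of mutant to control mean can be smaller than the bound of the gene. For Golga7b it was 4.46, with 43.3 and 34.3 in controls and 182 and 164 in mutants, where the bound of the gene is 16.6-fold. For Plcb4 it was 6.85, with 53.9 and 53.9 in controls and 315 and 423 in mutants, where the bound is 9.93-fold. For Cnr1 it was 2.02, where the bound is 15.7-fold. When the brightest of all probe sets of a gene had to meet the limits, 73 of the 87 remained.

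**Figure D3:**
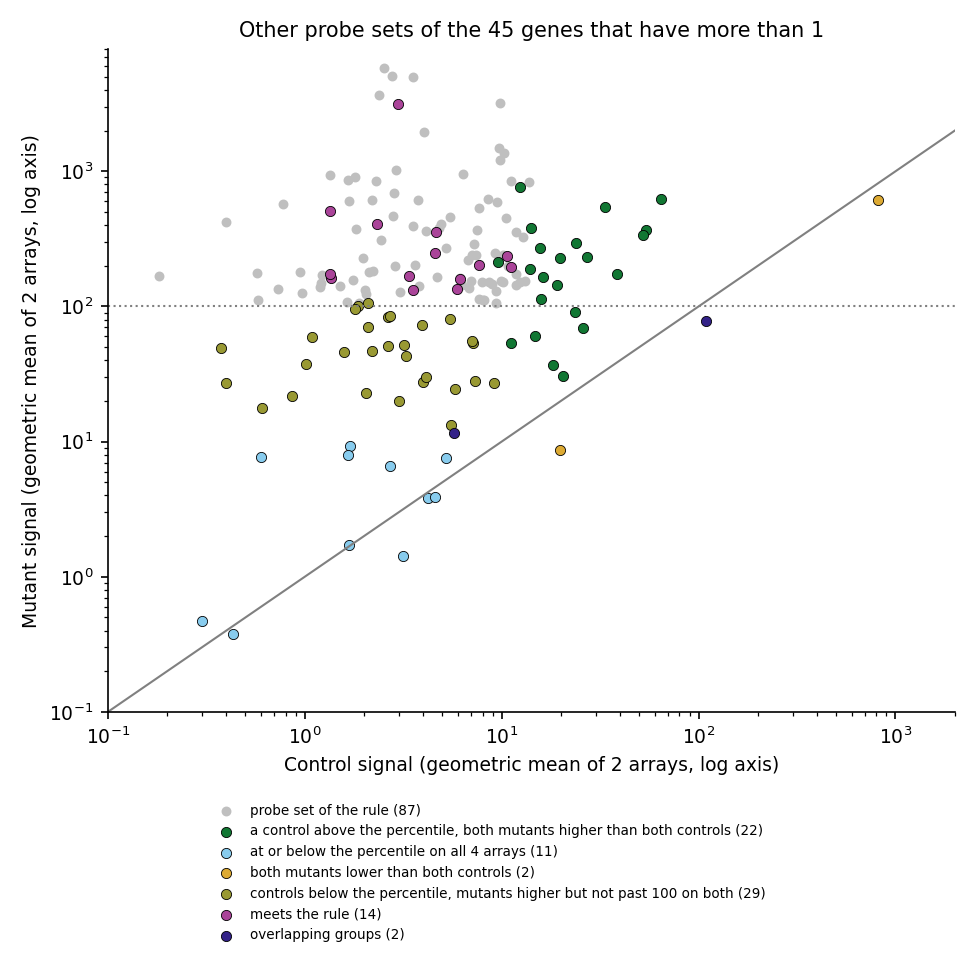
Geometric mean signal of the 2 mutants against that of the 2 controls (log axes, intensity units) for the 80 other probe sets, coloured by pattern with counts in the key, and in grey for the probe sets of the rule; the line marks equal signal and the dotted line 100. Most other probe sets lie above the line, and the lone point at the right, below it, is the Tenm2 probe set with 834 and 791 on the controls.

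Genes nearest the limits show how sharp they are. Just inside 100 on the mutants were Tll1, given above, and 3 others. Svopl read 0.807 and 3.34 in controls and 115 and 101 in mutants, Cryba4 read 1.02 and 0.332 in controls and 102 and 122 in mutants, and Prrx2 read 5.79 and 11.5 in controls and 104 and 121 in mutants. Just outside it, Arid3b read 11.3 and 1.31 in controls and 113 and 99.9 in mutants, and Dpp6 read 2.38 and 1.13 in controls and 100.1 and 98.4 in mutants. Sp8 read 1.19 and 3.76 in controls and 120 and 97.8 in mutants, and Insyn2b read 4.90 and 5.95 in controls and 97.0 and 100.7 in mutants. Members and others thus differ by a few units on a mutant array. Just inside the percentile of the controls were Tagln3, Fabp4, Ly6g6d and 2310061N02Rik, each given above. Just outside it, Aplp1 read 11.2 and 15.4 in controls and 152 and 134 in mutants, and Plcxd1 read 15.3 and 12.7 in controls and 178 and 143 in mutants. Unc5c, a netrin receptor, read 15.8 and 10.5 in controls and 103 and 105 in mutants. Sp5, a zinc finger target of Wnt signalling, read 15.8 and 2.26 in controls and 364 and 433 in mutants.

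The mutant arrays differed from each other, a comparison the rule did not use. Of the 87 genes, 64 (73.6%) read higher on mutant 2, with a median log2 difference of 0.21. Among all 13758 probe sets with at least 100 on both mutants, 52.4% read higher on mutant 2, with a median of 0.01. All 7 loci in keratin-associated protein clusters and all 3 metal and redox proteins were higher on mutant 2, with medians of 0.49 and 0.43. The enzymes and carriers had a median of 0.03 and the receptors 0.04. The difference was over 1.5-fold for 12 genes. There is 1 array per embryo, so a difference between embryos and one between arrays cannot be told apart.

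**Figure D4:**
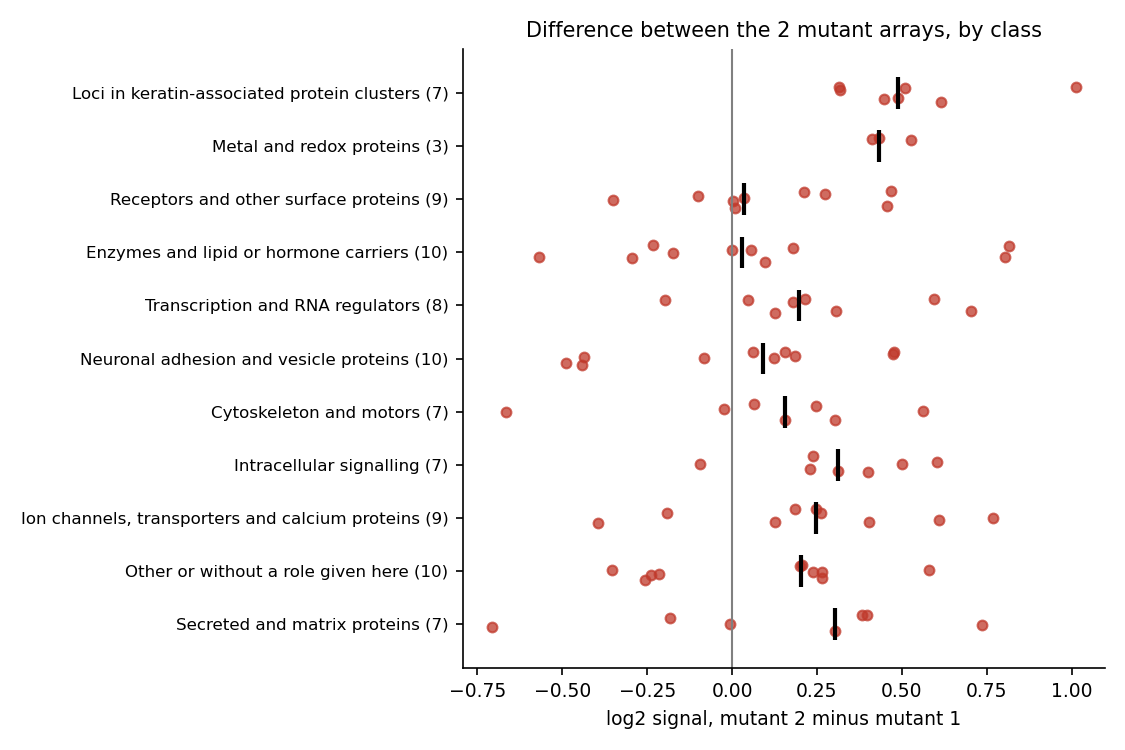
Log2 signal of mutant 2 minus mutant 1 for each of the 87 genes, by class with the number of genes in brackets; points are genes, black bars class medians, and the vertical spread of points within a class has no meaning. All genes of the classes at the top lie right of 0, from 0.31 to 1.01 for the keratin-associated protein clusters, while the other classes spread to both sides.

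The authors' deposited table lists 86 of the 87 probe sets, all but that of Rundc3a. Its values come from the same arrays with other software, so they are no independent measurement. The fold of mutant over control in the authors' deposited table was 9.01 to 3846 with a median of 57.4. For Gm10229 the authors' deposited table gives 3846-fold, where the bound above is 404-fold.

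Some members are neighbours on the chromosome. Dclk3 and Stac, Clic6 and Runx1, and Crtac1 and Golga7b stand next to each other among protein-coding genes. Of 98 other neighbours tested, outside the families set aside, 42 (42.9%) rose and 15 fell, against 20.6% and 24.5% of all genes tested. Their median log2 difference was 0.32, against -0.06 over all genes. The 6 called neighbours with the largest moderated t include both sides of Diras2. Syk, a tyrosine kinase, read 44.2 and 42.1 in controls and 987 and 1044 in mutants and rose by 4.56 ± 0.12 (limma adjusted p = 3.81e-07). Gadd45g, a stress and growth-arrest protein, rose by 3.36 ± 0.14 (limma adjusted p = 2.80e-06). The neighbours Rab6a (of Plekhb1), Cpe (of Tll1) and Jarid2 (of Cd83) rose by 1.69 ± 0.08, 1.94 ± 0.13 and 1.42 ± 0.10, all called in limma. Ly6g6c, next to Ly6g6d in the Ly6 cluster, went the other way. It read 2386 and 2738 in controls and 132 and 121 in mutants and fell by 4.34 ± 0.11 (limma adjusted p = 3.35e-07).

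Gene lists for the hair follicle and its signals give the setting of these genes. Their counts stand against 20.6% of all genes tested that rose and 24.5% that fell. Of 15 tested genes of hair shaft and sheath proteins other than keratins, apart from the members Gprc5d, Crym and Hephl1, 11 rose, 3 fell and 1 did not pass, with a median log2 difference of 3.33. S100a3, a calcium-binding protein of the hair cuticle, read 17.94 and 15.02 in controls and 4623 and 5103 in mutants, just outside the control limit. It rose by 8.21 ± 0.13 (limma adjusted p = 7.46e-08). Psors1c2 rose by 6.86 ± 0.18 (limma adjusted p = 3.49e-07) and Padi3, an enzyme that modifies hair proteins, by 5.83 ± 0.17 (limma adjusted p = 4.64e-07).

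Of 26 hair follicle transcription regulators that are no members, 16 rose, 8 fell and 2 did not pass, with a median of 1.06. Trps1 rose by 3.79 ± 0.15 (limma adjusted p = 1.94e-06), while Irx2 and Satb1 fell by 3.92 ± 0.13 and 3.37 ± 0.14 (limma adjusted p = 8.58e-07 and 2.40e-06). Among Wnt target and feedback genes 18 of 21 rose, with 1 lower, 2 not passing and a median of 2.22. Wif1, a secreted Wnt inhibitor, rose by 4.90 ± 0.14 and Dkk4, another, by 3.60 ± 0.11 (limma adjusted p = 4.81e-07 and 5.15e-07). Of 17 BMP ligands, antagonists and targets 14 rose, 1 fell and 2 did not pass, with a median of 2.05. Eph receptors and ephrins split evenly, with 6 of 16 higher, 6 lower and 4 not passing. Among all genes tested, 20.6% rose and 24.5% fell. Over all 15 lists, 146 genes that are no members were tested, and 80 (54.8%) rose, 31 fell and 35 did not pass. Some of these 111 calls were lost when an array was left out, among them Efna4, Epha2 and Epha7 of the Eph list. A probe set at background on both controls, such as that of Ephb1, could not be tested with a mutant array left out. For such genes a lost call may not show. Fitted without a trend in intensity, 101 list genes were called, members included, against 121. The calls lost there include Cdsn, Lpar6, Tgm3, Cux1, Lhx2, Efna3 and Epha1.

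Markers of other cells were measured on the same arrays, and their part in the signals of the 87 genes was not tested. As a background for the marker counts, 20.6% of all genes tested rose and 24.5% fell. Of 10 keratinocyte markers, 3 rose, 5 fell and 2 did not pass, and all 10 lay above the percentile on all 4 arrays. The higher call of Itgb4 and the lower calls of Krt14 and Perp were lost where limma was fitted without a trend in intensity. The lower calls of Krt14 and Perp were lost without either control, that of Krt14 also without mutant 1. Of 11 melanocyte markers 10 rose and 1 did not pass, and their summed signal was 1883 to 1893 on the controls and 5504 to 6740 on the mutants. Tyrp1, a melanin-making enzyme, met the signal limits, with 12.2 and 4.91 in controls and 202 and 307 in mutants, at least 17.2-fold higher, and is no member because it was set aside by name. The call of Kit was lost without control 1, control 2 or mutant 1. Of 8 dermal fibroblast markers tested, 1 (Dcn) rose, 2 (Col1a2 and Col5a1) fell and 5 did not pass, with summed signals of 4529 to 5270 on the controls and 4609 to 5154 on the mutants. Dcn gave most of these sums, and without it they were 1620 to 2371 on the controls and 1165 to 1450 on the mutants. The calls of Dcn and Col1a2 were lost under several settings, Dcn without control 1, control 2 or mutant 2 and Col1a2 without control 2 or mutant 1.

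Piezo2 and Rab3c stand in the list of Merkel cell markers. Of its 4 other tested genes, Tmem163 rose, 2 did not pass and Krt18 fell, a call lost without control 2 or mutant 2, and the summed signal of the list was 844 to 988 on the controls and 846 to 1021 on the mutants. Without Krt8, its brightest gene, the sum was 386 to 486 on the controls and 543 to 589 on the mutants. Both sums include Piezo2 and Rab3c, which the rule chose as low on controls and high on mutants. The rise of the second sum is therefore no separate evidence on the list. The 4 other tested genes had a median log2 difference of -0.47. Atoh1, which sets Merkel cell fate, read 32.3 and 14.5 in controls and 18.5 and 12.1 in mutants, with overlapping groups. In the neuron and Schwann cell list, 3 of 6 tested genes were called higher and 1 lower. Its summed signal was 1332 to 1376 on the controls and 2031 to 2051 on the mutants. Without Erbb3, its brightest gene, the sum was 169 to 170 on the controls and 1059 to 1212 on the mutants. Most of that mutant sum was Tubb3, with 765 on mutant 1 and 819 on mutant 2. The lower call, of Erbb3, was lost without control 1, control 2 or mutant 2. Both this call and the higher call of Stmn2 were lost where limma was fitted without a trend in intensity. Tubb3, a neuronal tubulin, rose by 5.23 ± 0.20 (limma adjusted p = 1.88e-06). Of the 12 genes on the array, 5 lay at or below the percentile on all 4 arrays.

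Fabp4 stands in the adipocyte list, whose summed signal, Fabp4 included, was 156 to 171 on the controls and 1014 to 1143 on the mutants. Without Fabp4 it was 142 to 171 on the controls and 47.5 to 52.8 on the mutants. Of the other 5 genes on the array, 3 lay at or below the percentile on all 4 arrays, among them Adipoq, the adiponectin gene. The other two fell. Lpl fell by 2.54 ± 0.29 (limma adjusted p = 3.90e-04) and Pparg by 1.35 ± 0.32 (limma adjusted p = 0.0116), a call lost without control 2. Of 2 endothelial markers tested neither passed, and 7 of 9 lay at or below the percentile throughout, with summed signals of 107 to 129 on the controls and 102 to 109 on the mutants. Of 6 leukocyte markers 1 (Itgam) fell and 5 did not pass, with summed signals of 209 to 283 on the controls and 164 to 175 on the mutants. Of 5 skeletal muscle markers 1 (Tnni1) rose and 4 did not pass, and the 1 erythroid marker tested did not pass.

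**Figure D5:**
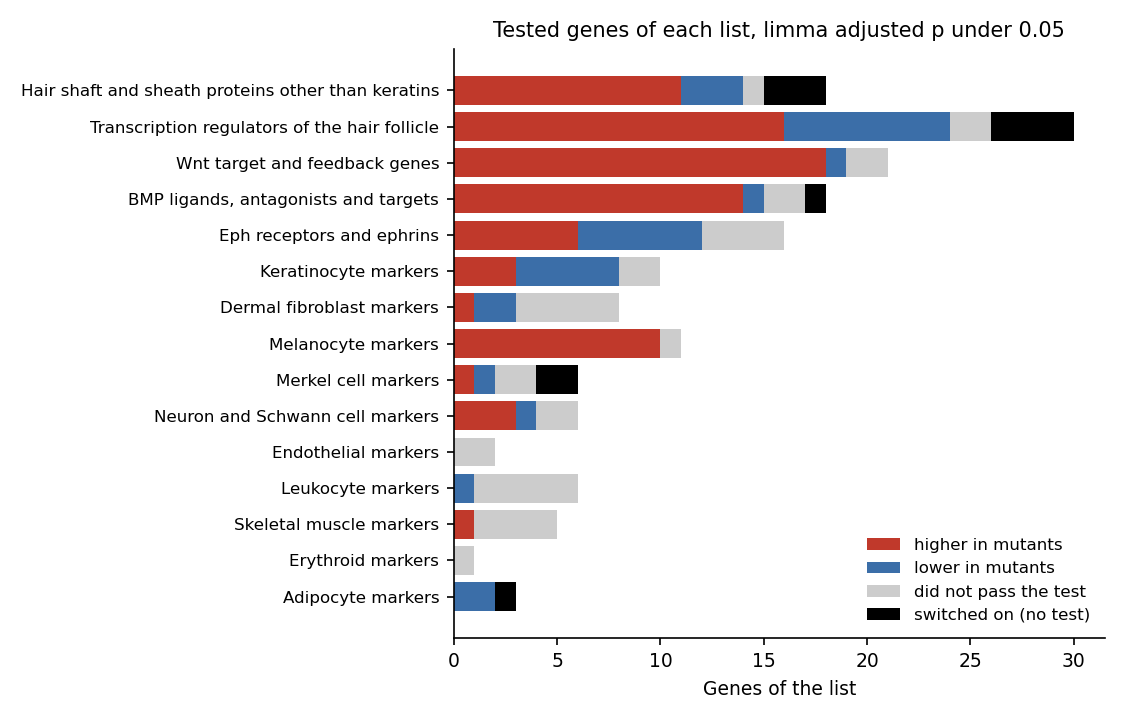
Number of tested genes in each of the 15 lists that were higher, lower or not passing in limma at an adjusted p under 0.05, with members of the 87 genes in black and not tested. Red fills most of the bars of the hair, Wnt, BMP and melanocyte lists, with 11 of 15, 16 of 26, 18 of 21, 14 of 17 and 10 of 11 genes that are no members higher.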

How the data were processed

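Signal intensity of each probe set on 4 Affymetrix MOE430 2.0 arrays was used as deposited by the authors. The software was GCOS and MAS5, per the submitters' processing notes, and their versions are not given in the sources used here. The trimmed mean signal was the same on all arrays to within 0.1%, so the arrays were not scaled again. A second table, deposited by the authors, gives ratios and a fold of control over mutant. Per the file headers these came from GCRMA values and were kept where a probe set had at least 2 Present calls among 4 arrays and a difference of at least 2-fold. The fold was turned round here.

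There were 45101 probe sets, of which 64 controls of the array itself were not used. The platform's annotation names 1 gene for 34945 probe sets, several for 932 and none for 9160, and symbols were updated through RefSeq. Log2 signals of 28434 probe sets above their array's 40th percentile on at least 2 arrays were compared, mutant minus control, with limma 3.58.1 in R 4.3.3 (lmFit, eBayes with trend, two-sided). Adjusted p-values are Benjamini-Hochberg over all of these, with a threshold of 0.05. Errors are SEs of that fit. A gene is read by the tested probe set whose mean log2 signal is highest. With 2 arrays a group, an exact permutation test reaches no p below 0.333, and calls rest on the pooled spread. In 10 simulated draws, limma recovered 76 to 87 of 100 2-fold changes and 96 to 100 of 100 4-fold changes, and 5.55% of calls were false. The noise there was normal, and far fewer probe sets were changed than were called in the data. The number of arrays limits the precision. The p-values rest on a spread between arrays, 1 per embryo, that is in part pooled over probe sets.

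The genes and lists were chosen with earlier results of these data known, and role classes and families of relatives after values were seen. Every gene switched on is named, by role where one is given. Signals on all 4 arrays are given for the 30 with the largest bound, for those in a list and for the 4 nearest each limit. For each list, up to 4 other genes may be named, by size of moderated t, and relatives and neighbours were named after their values were seen. Numbered samples of the 2 groups were not taken as pairs. The alternatives tried changed the percentile, the limit of 100, the scaling, the trend, the filter and the probe set of a gene, added a block for the sample number and left out each array. All 4 arrays were scanned on 1 day with 1 scanner and 1 fluidics station, on 4 fluidics modules. Batches in dissection, RNA preparation or labelling were not examined, and the main fit held no batch term.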

Additional observations from a re-analysis of the deposited data

How the results depend on the processing

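The number of genes switched on was 87, and it was 53 with background at the 30th percentile, 138 at the 50th, 156 with a limit of 50 on the mutants and 46 with a limit of 200. It was 78 with median centring, 88 with quantile normalization, 73 where the brightest of all probe sets had to meet the limits, and 95 to 105 when an array was left out. With the percentile taken over probe sets of 1 gene, an alternative chosen after seeing the data, it was 109. The 50th percentile, the limit of 50 and a left-out array only relax the rule, so all 87 had to remain there. With quantile normalization, which could lose genes, all 87 remained too. Of the other settings that could lose genes, the 30th percentile lost 34 and the limit of 200 lost 41. Median centring lost 9, and the demand on the brightest of all probe sets lost 14. Bounds could hardly change direction, since members read at least 100 on both mutants, and none did. The largest moves of a bound on the log2 scale were 0.82 and 0.91 with the percentiles and 0.51 without either mutant. With median centring, which shifted the median of all genes by -0.11, the largest was 0.11. Of the 98 neighbours, 42 rose, and 34 to 43 did under the alternatives that kept all 4 arrays. With an array left out, fewer of the neighbours could be tested, so those counts are not set beside these. Over all alternatives the numbers of probe sets, genes and list genes called stayed within 1.5 times 11210, 5622 and 121, but the split of genes, 2565 higher and 3057 lower, was 2108 and 3627 with median centring and 2191 and 2015 without control 1. Same-numbered samples of the groups deviated from their group means with a correlation of -0.00341 over all probe sets and 0.0145 over those tested. With 1 difference per group, this cannot show whether they are pairs. The labels define no pairs, so the numbers were not taken as such. With the number as a replicate block, 11525 probe sets, 5746 genes and 123 list genes were called. Signals at or below the percentile have no order, so folds from them are bounds.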
